A study of Homo sapiens with 89 samples.

Results

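The HOX cluster genes were taken as every gene of the count tables whose symbol is HOXA, HOXB, HOXC or HOXD followed by a number, which gave 39 of 57905 genes: 11 HOXA, 10 HOXB, 9 HOXC and 9 HOXD genes. Their RNA was measured by sequencing polyadenylated RNA of 2 neuroblastoma lines of human origin, in 5 groups of 3 libraries. In IMR-32, a line of adrenergic type in which MYCN is amplified, cells with an shRNA against EXOSC10 induced by 1 µg/ml doxycycline (shEXOSC10) were set against cells without doxycycline (control). EXOSC10 is a 3'-5' exonuclease of the nuclear RNA exosome. In SHEP, a mesenchymal line without MYCN amplification, cells with doxycycline-induced wild type MYCN and cells with doxycycline-induced MYCN 3A, a triple mutant that the labels call deficient in RNA binding, both at 1 µg/ml, were set against cells without doxycycline and without the protein (no MYCN). The counts are headed EtOH, the solvent of doxycycline, for the IMR-32 control libraries, and noDox, with no solvent named, for the SHEP no MYCN libraries. In both lines the agent and doxycycline cannot be told apart, and the labels name neither the clones behind a line nor separate cultures behind the replicates. A p below thus measures the spread among the libraries at hand, which may be technical.

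HOX genes encode homeodomain transcription factors that give cells their position along the body axis. Their order on the chromosome follows the order in which they act, from the anterior paralogs with low numbers to the posterior paralogs with high numbers. Polycomb complexes keep whole clusters silent, Trithorax complexes keep them active, retinoic acid switches on the anterior genes, and PBX and MEIS proteins bind DNA together with HOX proteins. Neuroblastoma arises from neural crest, a tissue whose HOX genes record the level of the body from which the cells came.

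On hg19, the build of the files, the HOXA genes span chromosome 7 from 27132612 to 27239725 on the minus strand, and the HOXB genes chromosome 17 from 46605888 to 46806540 on the minus strand. The HOXC genes span chromosome 12 from 54332535 to 54449813 on the plus strand, and the HOXD genes chromosome 2 from 176957619 to 177055688, with all 9 genes on the plus strand. Reads that overlapped the exons of several genes were counted for each of them per the file header of the SHEP table, and exons shared on the same strand make up 80.5% of HOXD4, 78.9% of HOXC4, 72.7% of HOXC12, 59.9% of HOXC5, 31.0% of HOXA4, 21.6% of HOXD3, 19.2% of HOXD11, 18.9% of HOXA9, 17.1% of HOXB4, 16.8% of HOXD10, 15.7% of HOXC6 and 10.6% of HOXB6. The share was 4.3 to 9.9% for HOXA10, HOXA3, HOXB3, HOXC10, HOXA6 and HOXC9. The values of these genes are therefore uncertain as values of single genes. HOXD13, HOXD9, HOXD8, HOXB2, HOXB7, HOXB9, HOXC8 and HOXA11 share 0 exonic bases on their strand.

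The promoters of 4 HOXD genes are shown because these genes carry the differences described below. Each line gives the 250 bases before a RefSeq start of the gene on the plus strand of chromosome 2, on GRCh38.p14. They lie at chr2:176092471-176092720 (HOXD13), chr2:176107030-176107279 (HOXD11), chr2:176116528-176116777 (HOXD10) and chr2:176129455-176129704 (HOXD8). The gene models counted on hg19 begin further upstream for HOXD11 and HOXD10, so the windows of these 2 genes lie inside the counted models. Capitals mark CACGTG, the E-box that MYC family proteins are known to bind.
HOXD13: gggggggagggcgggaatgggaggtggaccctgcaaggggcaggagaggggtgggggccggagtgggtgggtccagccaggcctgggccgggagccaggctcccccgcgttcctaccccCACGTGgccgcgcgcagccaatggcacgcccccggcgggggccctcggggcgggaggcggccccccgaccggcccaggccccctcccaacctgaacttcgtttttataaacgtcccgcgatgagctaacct
HOXD11: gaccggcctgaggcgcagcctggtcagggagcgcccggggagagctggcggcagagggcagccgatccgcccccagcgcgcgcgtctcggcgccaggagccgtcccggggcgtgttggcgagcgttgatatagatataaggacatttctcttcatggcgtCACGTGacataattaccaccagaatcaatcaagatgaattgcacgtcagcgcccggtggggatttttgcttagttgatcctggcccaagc
HOXD10: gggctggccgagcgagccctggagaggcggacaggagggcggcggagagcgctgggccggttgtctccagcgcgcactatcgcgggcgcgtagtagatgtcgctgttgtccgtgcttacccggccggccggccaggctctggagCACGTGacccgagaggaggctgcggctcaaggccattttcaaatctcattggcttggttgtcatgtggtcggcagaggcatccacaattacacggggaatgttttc
HOXD8: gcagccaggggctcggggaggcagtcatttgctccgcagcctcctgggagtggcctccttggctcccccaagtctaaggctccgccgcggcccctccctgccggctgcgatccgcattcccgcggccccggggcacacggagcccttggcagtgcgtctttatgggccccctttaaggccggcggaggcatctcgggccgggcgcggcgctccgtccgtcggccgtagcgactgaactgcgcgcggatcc
The E-box reads the same on both strands. It begins 131 bases before the start in HOXD13, 90 bases before it in HOXD11 and 106 bases before it in HOXD10, and these letters are not in the window of HOXD8. Windows of 300 bases, 250 before and 50 after a start, were at hand for 20 of the 39 HOX genes, and 9 of these 20 genes had the motif in at least 1 window (HOXA3, HOXA4, HOXA7, HOXA9, HOXD1, HOXD3, HOXD10, HOXD11 and HOXD13). Of all 35116 windows in the table, 7.26% held it, and of all 27305 genes 8.77% held it in at least 1 window. A match is a description of letters and says nothing of binding in these cells.

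The libraries held 16394148 to 26193478 counts in IMR-32 and 11638859 to 15353505 in SHEP. Counts are of read ends, not of molecules. Levels within a line are given as CPM (counts scaled to a common library total with TMM factors) and levels between genes or lines as TPM (the same per exonic length, scaled to a common sum per library), each as mean ± SD of 3 libraries. EXOSC10 had 47.3 ± 1.54 CPM in shEXOSC10 cells, against 68.6 ± 5.48 CPM in control cells. MYCN had 599 ± 5.47 CPM in shEXOSC10 cells and 1097 ± 15.3 CPM in control cells. In SHEP, MYCN counts were near 0 in all groups (0.0453 CPM in libraries labelled wild type MYCN, 0.249 in libraries labelled MYCN 3A and 0.0826 in libraries labelled no MYCN), so these counts do not check the SHEP labels, and the cause was not tested. The 10 adrenergic markers summed to 2098 to 2190 TPM in shEXOSC10 cells and 3637 to 3842 TPM in control cells, against 91.9 to 117.6 TPM over the 9 SHEP libraries, where TH and DBH were at 0. Of these 10, 9 were called higher and 1 lower in IMR-32 control than in SHEP no MYCN cells. The lower one was GATA2, with 1.20 CPM in IMR-32 control and 55.4 CPM in SHEP no MYCN cells. TH was also low in IMR-32 control cells, at 0.774 CPM. The 10 mesenchymal markers summed to 390 to 432 TPM over the 6 IMR-32 libraries and 3141 to 4483 TPM in SHEP. Markers of Schwann cells summed to at most 21.0 TPM, of leukocytes to at most 21.9 TPM, of epithelium to at most 1.75 TPM and of endothelium to at most 0.536 TPM. Of the 5 Schwann cell markers, 2 were at 1 TPM or more in both IMR-32 groups and 0 in each SHEP group. Their sum was 16.7 to 21.0 TPM in IMR-32 control cells and at most 1.14 TPM in SHEP. Of the 5 leukocyte markers, 2 were at 1 TPM or more in both IMR-32 groups and 1 in each SHEP group. SOX10 was at 0 in IMR-32 and S100B was at 0 in SHEP. CD3E and PTPRC were at 0 in IMR-32, while PTPRC was above 0 in every SHEP group.

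The lines differed in which clusters they transcribed. All 39 genes together had 144 ± 2.32 TPM in IMR-32 control cells and 373 ± 8.93 TPM in SHEP no MYCN cells. The whole HOXB cluster was silent in IMR-32 at this depth: it had 2 counts, both of HOXB3, in the 3 control libraries and 0 counts in the 3 shEXOSC10 libraries. In SHEP no MYCN cells, HOXB genes summed to 220, 210 and 224 TPM and were the largest part of the HOX level. HOXA was near silent in IMR-32 control cells, at 0.768 ± 0.233 TPM for its 11 genes, and low in SHEP no MYCN cells, at 18.0, 17.8 and 15.3 TPM. HOXC had 40.6 ± 1.30 TPM in IMR-32 control cells and 53.5 ± 3.90 TPM in SHEP no MYCN cells. HOXD had 103 ± 3.33 TPM in IMR-32 control cells and 84.9 ± 1.11 TPM in SHEP no MYCN cells.

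**Figure D1:**
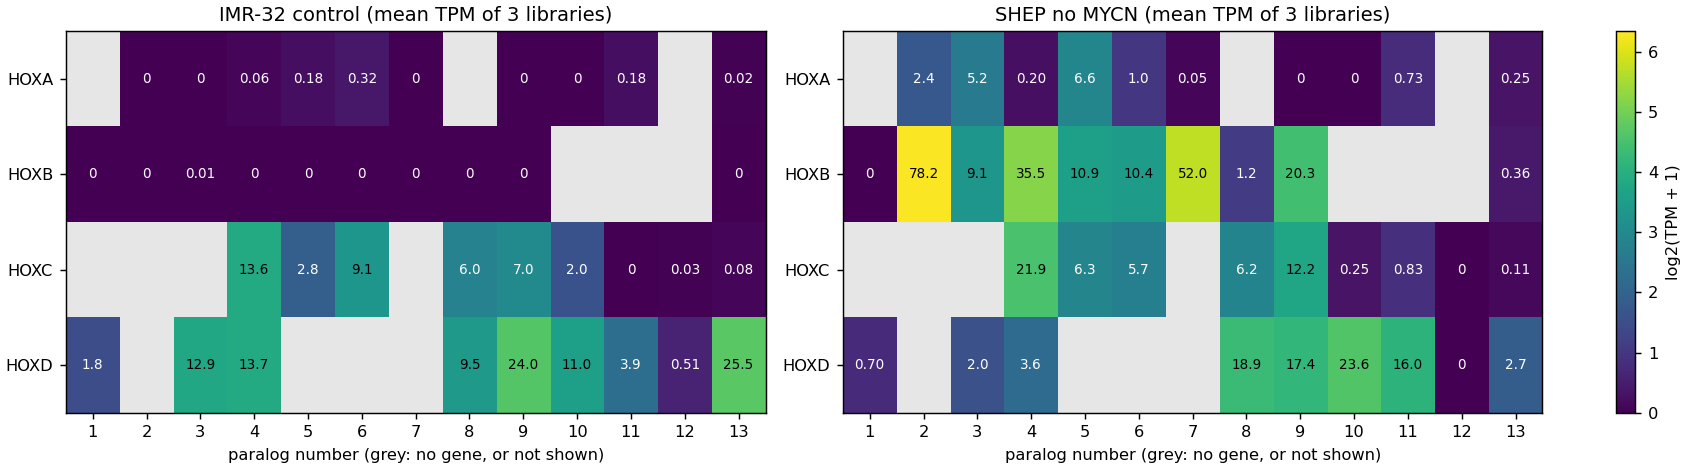
Mean level of HOX genes in IMR-32 control cells (left) and SHEP no MYCN cells (right), 3 libraries each, by cluster (rows) and paralog number (columns); the numbers are TPM, the colour is log2(TPM + 1), and grey marks a paralog that the cluster lacks or that is not shown. The HOXB row is empty in IMR-32 and the brightest in SHEP, while HOXC and HOXD are on in both lines.

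By level per length, the order in IMR-32 control cells was led by HOXD13, a posterior gene that patterns the digits, with 24.8, 23.2 and 28.4 TPM, and by HOXD9 with 24.7, 21.8 and 25.4 TPM. These ranges overlap, so the first place is shared. HOXD4 (13.7 ± 0.429), HOXC4 (13.6 ± 3.49) and HOXD3 (12.9 ± 0.951 TPM) came next and overlapped each other. HOXC6 had 10.4, 7.38 and 9.67 TPM and overlapped HOXD8 above it but not HOXC9 below it. HOXD12 was low, with 3, 8 and 7 counts in the control libraries and 2, 2 and 18 counts in the shEXOSC10 libraries.

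In SHEP no MYCN cells the order was HOXB2, which acts in the hindbrain, with 79.3, 75.3 and 80.2 TPM, then HOXB7 with 49.8, 53.7 and 52.6 TPM, then HOXB4 with 35.8, 33.6 and 37.2 TPM. None of these ranges overlaps the next. HOXD10, which specifies lumbar motor neurons, followed with 25.7, 22.1 and 23.1 TPM and overlapped HOXC4 with 24.4, 19.9 and 21.6 TPM. HOXD8 had 18.7, 20.2 and 17.8 TPM and HOXC9 had 12.5, 12.1 and 11.9 TPM. Of the HOXA genes, HOXA5 had 5.70, 7.68 and 6.35 TPM and HOXA3 had 5.56, 5.67 and 4.43 TPM. HOXA9, HOXA10, HOXB1, HOXC12 and HOXD12 were at 0 counts in the no MYCN libraries, where 6 counts in a library, which are 3 pairs of read ends, would be 0.344 to 0.696 TPM. HOXA4, HOXA7, HOXA13, HOXB13 and HOXC13 had at most 8 counts in any library of either line and passed the filter on low counts in no comparison.

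In a fit of all 15 libraries with 1 coefficient per group, 28 of the 39 genes were tested between IMR-32 control and SHEP no MYCN cells. Of these, 5 were called higher and 19 lower in IMR-32 (edgeR quasi-likelihood test, adjusted p under 0.05), which is 85.7%, near the 86.5% of all 18628 genes tested that were called (45.3% higher and 41.2% lower). The line, the table, the sequencing run and the solvent named for IMR-32 control alone cannot be told apart here. The number of genes called is therefore not a result about HOX genes. The sizes were uneven within and between clusters. HOXB2, HOXB7 and HOXB4 were at 0 counts in IMR-32 control cells, so that SHEP no MYCN cells were at least 289-fold, 84.3-fold and 142-fold higher, with the floor set at 6 counts per library since counts are of read ends. HOXB9 was at least 58.5-fold, HOXB6 at least 45.3-fold, HOXA3 at least 24.0-fold, HOXB5 at least 23.7-fold and HOXA2 at least 5.25-fold higher in SHEP.

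HOXD was on in both lines but with another make-up. HOXD13 had 25.5 ± 2.66 TPM in IMR-32 control cells and 2.68 ± 0.216 TPM in SHEP no MYCN cells (log2 fold change 3.02, SE 0.25, edgeR adjusted p = 1.0e-12). HOXD3 had 12.9 ± 0.951 TPM in IMR-32 control and 1.95 ± 0.282 TPM in SHEP no MYCN cells (2.50, SE 0.20, 3.7e-13 by the same test), and HOXD4 was also higher in IMR-32 (1.71, SE 0.28, 1.6e-06). HOXD4 shares 80.5% of its exonic bases with HOXD3, so these 2 differences are not independent of each other. The middle of the cluster went the other way. HOXD11 had 3.88 ± 0.542 TPM in IMR-32 control cells and 17.3, 15.8 and 14.9 TPM in the SHEP no MYCN libraries (-2.26, SE 0.18, 7.0e-13), HOXD10 was lower in IMR-32 by -1.33 (SE 0.14, 2.7e-10) and HOXD8 by -1.21 (SE 0.17, 7.6e-08). HOXD9 had 24.0 ± 1.92 TPM in IMR-32 control and 17.4 ± 1.94 TPM in SHEP no MYCN cells and was not called (0.25, SE 0.15, 0.114). In HOXC, HOXC4, HOXC5 and HOXC9 were lower in IMR-32 by -0.91, -1.41 and -1.01. HOXC10 had 31, 28 and 31 counts in IMR-32 control and 0, 2 and 6 counts in SHEP no MYCN libraries, and it passed the filter only through the IMR-32 groups, so that it had to differ. HOXC11 had 0 counts in the IMR-32 control libraries and 4, 17 and 16 counts in the SHEP no MYCN libraries, which were at least 2.88-fold higher, and HOXB8 had 0 counts in the IMR-32 control libraries and 18, 2 and 16 counts in the SHEP no MYCN libraries. In each of these 2 genes, 1 group of 5 had all 3 libraries above the cutoff of the filter, and it was not the no MYCN group. It was MYCN 3A for HOXB8, with 16, 10 and 10 counts, and wild type MYCN for HOXC11, with 14, 12 and 10 counts. Single libraries of other SHEP groups had as many counts. HOXC8 was not called, with 6.01 ± 0.528 TPM in IMR-32 and 6.23 ± 2.16 TPM in SHEP. HOXC6 was called higher in IMR-32 by 0.47 (0.0284), a call that was lost without control replicate 1 (0.145), control replicate 3 (0.0667), no MYCN replicate 2 (0.0803) or no MYCN replicate 3 (0.0692). HOXA11, at 8 counts over the IMR-32 control libraries and 24 over the no MYCN libraries, was called lower by -2.17 (0.029) and lost its call without control replicate 3 (0.125), no MYCN replicate 1 (0.0694) or no MYCN replicate 2 (0.0932), and with DESeq2 (0.071).

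**Figure D2:**
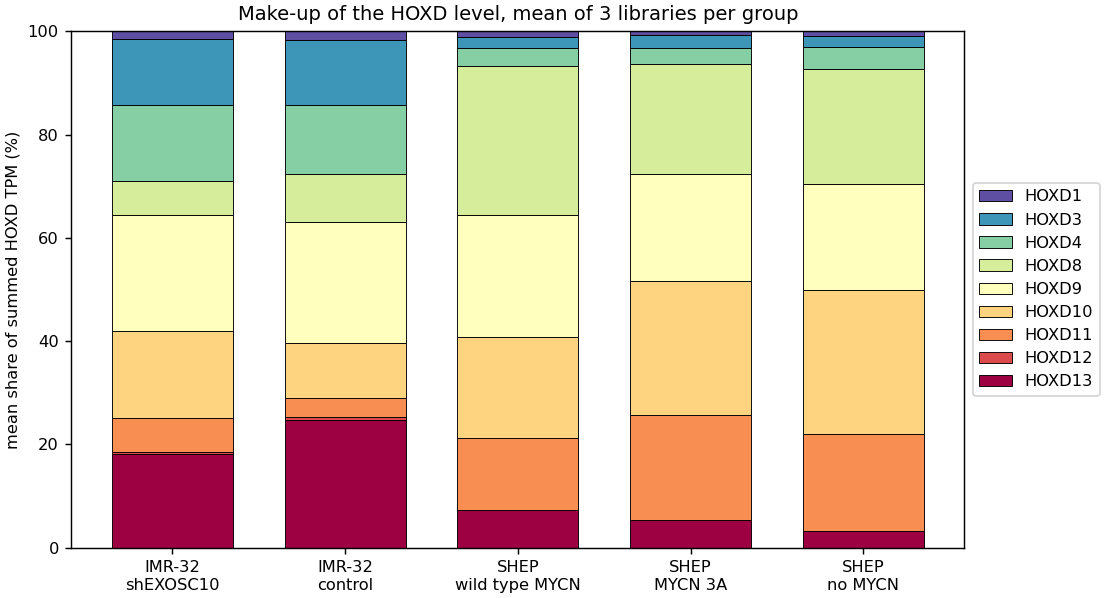
Share of each HOXD gene in the summed HOXD level (TPM, percent, y axis), as the mean of 3 libraries in each of the 5 groups (bars), stacked from HOXD13 at the bottom to HOXD1 at the top. HOXD13 made up 24.7% in IMR-32 control and 3.16% in SHEP no MYCN cells, and its share was 18.0% in shEXOSC10 cells and 7.21% in wild type MYCN cells.

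The shEXOSC10 cells show which polyadenylated RNAs differed in level when EXOSC10 RNA was lower. Direct targets of the nuclear exosome and indirect changes cannot be told apart in these libraries. Within the HOX clusters HOXD10 and HOXD11 rose, HOXD13 fell, and the summed HOXD level was 106 ± 2.02 TPM in shEXOSC10 cells and 103 ± 3.33 TPM in control cells. HOXB had 0 counts in the shEXOSC10 libraries. Of the 39 genes, 15 passed the filter on low counts, and 3 were called higher and 1 lower by edgeR's quasi-likelihood test. This is 26.7% of the 15, near the background of 27.1% of all 17103 genes tested (13.5% higher and 13.7% lower). The groups did not overlap in 4 of the 15 genes, against 38.4% of all genes tested. The median log2 fold change was 0 over the 15 genes and 0 over all genes tested.

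HOXD10 had 14.6, 15.4 and 14.9 CPM in the shEXOSC10 libraries, against 9.48, 7.95 and 9.95 CPM in the control libraries. The log2 fold change was 0.71 (SE 0.14, edgeR adjusted p = 5.2e-05, n = 3 each). HOXD11, its neighbour on the posterior side, had 4.95, 5.14 and 5.16 CPM in shEXOSC10 cells and 2.96, 3.19 and 2.33 CPM in control cells (0.85, SE 0.25, edgeR adjusted p = 0.00562). Every shEXOSC10 library was above every control library in both genes. The 2 genes share exonic bases, so their rises are not independent of each other. Both calls held without any single library and under every other setting tried, with log2 fold changes of 0.62 to 0.77 for HOXD10 and 0.72 to 0.94 for HOXD11.

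HOXD13 had 13.7, 10.2 and 16.1 CPM in shEXOSC10 cells and 17.5, 16.2 and 19.2 CPM in control cells. It fell by 0.39 on the log2 scale (SE 0.13, edgeR adjusted p = 0.0216), and the nearest libraries of the groups lay at 16.1 and 16.2 CPM. The call was lost without shEXOSC10 replicate 2 (-0.24, adjusted p = 0.224), without control replicate 3 (0.106) and with DESeq2 (0.0701). HOXD8, between HOXD9 and HOXD4, had 5.88, 6.53 and 4.55 CPM in shEXOSC10 cells and 6.37, 9.91 and 7.04 CPM in control cells and was not called (-0.47, SE 0.20, 0.0667). HOXD9 (0.01, SE 0.12), HOXD3 (0.08, SE 0.11) and HOXD4 (0.19, SE 0.19) were not called either.

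HOXA11, a limb and urogenital gene, was called higher (2.16, SE 0.79, edgeR adjusted p = 0.0328) from 12, 10 and 16 counts in the shEXOSC10 libraries against 4, 4 and 0 counts in the control libraries. It passed the filter only through the shEXOSC10 group, so that it had to differ, and its call was lost without shEXOSC10 replicate 1 (0.0879), 2 (0.0856) or 3 (0.099), without control replicate 2 (0.0539) or 3 (0.183), with DESeq2 (0.0894) and without a filter (0.116). None of the 6 HOXC genes tested was called. Their log2 fold changes ran from -0.29 for HOXC4 to 0.24 for HOXC6, and HOXC4 had 10.2, 9.79 and 8.27 CPM in shEXOSC10 cells and 10.3, 14.9 and 9.19 CPM in control cells.

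**Figure D3:**
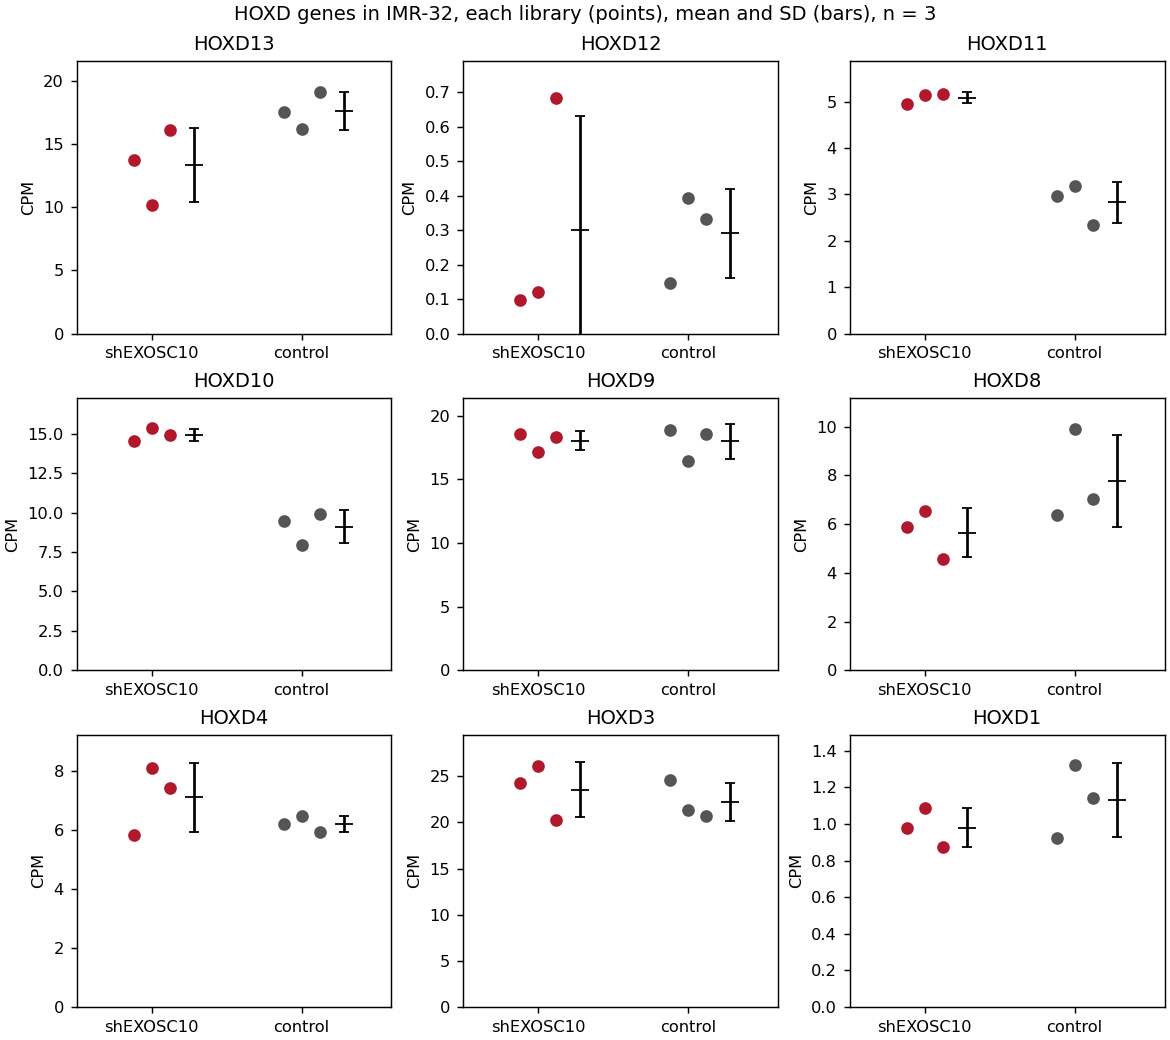
Level of each HOXD gene in CPM (y axis, from 0) in the 3 shEXOSC10 libraries (red points, left) and the 3 control libraries (grey points, right) of IMR-32, with mean and SD beside them. The groups do not overlap in HOXD10, HOXD11 and HOXD13, and they overlap in the other 6 genes.

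The adrenergic markers fell with EXOSC10 depletion, 8 of 10 lower and 1 higher, and MYCN fell by 0.87 on the log2 scale, both in the same libraries, and their part in the HOX results was not tested. In these bulk libraries, fewer cells of a kind and less RNA per cell cannot be told apart. Over all genes tested 13.5% rose and 13.7% fell, and the lists are read against these shares. Among the HOX cofactors, 2 rose and 3 fell of 9 tested. MEIS1 fell to 185 CPM in shEXOSC10 cells, against 261 CPM in control cells (-0.50, SE 0.05, edgeR adjusted p = 1.8e-13), MEIS2 fell by 0.39 and MEIS3 rose by 0.24. Of 13 retinoic acid pathway genes tested, STRA6, the retinol uptake receptor, rose by 1.40 (2.1e-14), RDH10, which makes retinaldehyde, rose by 0.54 (6.9e-04) and CRABP2, a carrier of retinoic acid, fell by 0.81 (8.6e-14). Of 29 Polycomb genes 1 rose and 3 fell, ASXL1 by 0.34, PHC2 by -0.40 and EZH1 by -0.30 among them. Of 18 Trithorax and related genes 2 rose and 4 fell, with MLLT3 at 1.31 and KDM6B, an H3K27 demethylase, at -0.42. None of the 4 HOX antisense and noncoding genes tested was called: HAGLR, an antisense gene of the HOXD cluster, had 14.9 CPM in shEXOSC10 cells and 13.9 CPM in control cells. Of 29 protein-coding genes tested within 500 kb of a cluster, 1 rose and 7 fell, and none of the 3 beside HOXD was called.

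Induction of wild type MYCN in SHEP asks what the protein changes in cells that lack it. In the libraries labelled wild type MYCN, HOXD13 and HOXD8 were higher and HOXB9 and HOXD10 lower than in those labelled no MYCN. Of the 39 genes, 26 were tested in SHEP, and 2 were called higher and 2 lower, which is 15.4%, against 22.2% of all 14923 genes tested (10.9% higher and 11.3% lower). The groups did not overlap in 10 of the 26 genes, against 37.5% of all genes. The median log2 fold change was -0.03 over the 26 genes and 0 over all genes. The summed level of all 39 genes was 354 ± 6.54 TPM in wild type MYCN and 373 ± 8.93 TPM in no MYCN libraries.

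HOXD13 had 4.08, 5.59 and 5.01 CPM in the wild type MYCN libraries, against 1.86, 2.16 and 1.87 CPM in the no MYCN libraries. Its log2 fold change of 1.31 (SE 0.31, edgeR adjusted p = 0.00351, n = 3 each) is 2.49-fold and rests on 26 to 78 counts per library. HOXD8 had 21.6, 22.4 and 25.1 CPM in wild type MYCN and 15.7, 17.5 and 15.6 CPM in no MYCN libraries (0.50, SE 0.14, edgeR adjusted p = 0.0102). Every wild type MYCN library was above every no MYCN library in both genes, and both calls held under every setting tried, at 1.23 to 1.43 and 0.43 to 0.56.

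HOXB9, a posterior HOXB gene, had 12.2, 11.8 and 11.4 CPM in wild type MYCN and 18.4, 16.4 and 18.9 CPM in no MYCN libraries (-0.60, SE 0.14, edgeR adjusted p = 0.0037). This call also held throughout. HOXD10 had 16.9, 15.9 and 14.8 CPM in wild type MYCN and 22.1, 19.6 and 20.7 CPM in no MYCN libraries (-0.39, SE 0.14, 0.0409). The groups do not overlap, but the call was lost without any of the 3 no MYCN replicates (0.148, 0.0679 and 0.0914), without wild type replicate 2 or 3 (0.128 each), with DESeq2 (0.0509) and without a filter (0.0853). Of the genes not called, HOXA3 had 5.09 ± 0.371 CPM in wild type MYCN and 7.34 ± 0.897 CPM in no MYCN libraries (-0.53, SE 0.20, 0.0639). The most abundant gene, HOXB2, had 87.8 ± 7.95 CPM in wild type MYCN and 88.5 ± 3.18 CPM in no MYCN libraries (-0.01, SE 0.09).

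**Figure D4:**
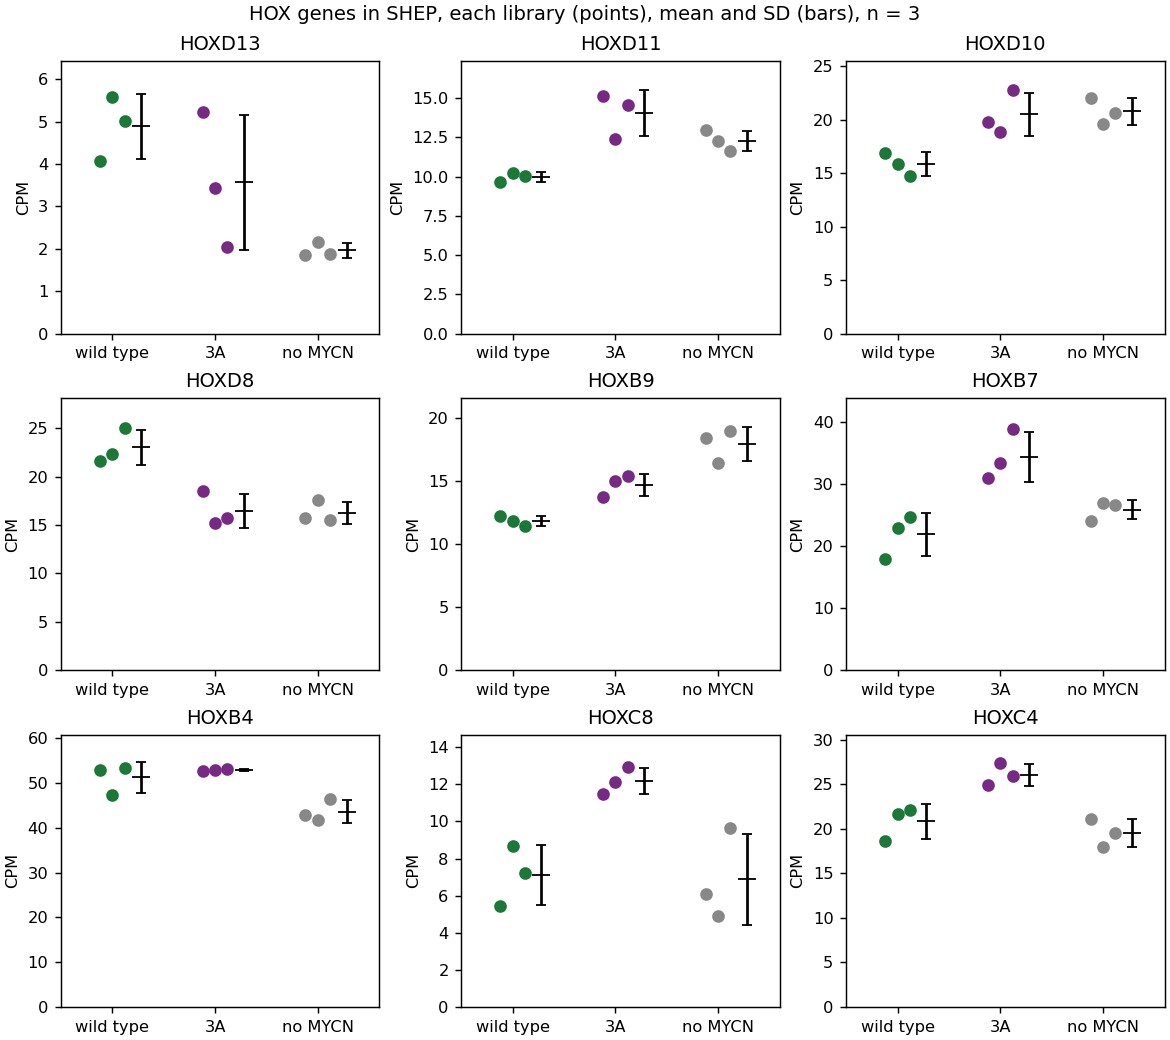
Level in CPM (y axis, from 0) of 9 HOX genes in the 9 SHEP libraries labelled wild type MYCN (green, left), MYCN 3A (purple, middle) and no MYCN (grey, right), as points with mean and SD beside them. HOXD13 and HOXD8 are higher and HOXB9 lower in wild type MYCN than in no MYCN libraries, and HOXB7 and HOXC8 are highest in MYCN 3A libraries.

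In the libraries labelled MYCN 3A, HOXB4, HOXB7, HOXC4 and HOXC8 were called higher than in those labelled no MYCN and 0 lower, of 26 tested. This is 15.4%, against 25.5% of all genes tested (12.7% higher and 12.8% lower). The groups did not overlap in 8 of the 26 genes, against 41.3% of all genes. At an unadjusted p under 0.05 edgeR gave 5 of the 26 genes in either direction, and DESeq2 also called 4 higher and 0 lower. The median log2 fold change was 0.13 over the 26 genes and -0.04 over all genes. All 4 genes belong to the central paralogs 4 to 8, of which 13 were tested. This is 30.8% of the 13, near the 25.5% of all genes tested, so the class is not a result about these genes. Other comparisons had other classes. With wild type MYCN, 1 of 13 central and 3 of 8 posterior genes (9 to 13) were called, against 22.2% of all genes. With shEXOSC10, 0 of 6 central and 4 of 7 posterior genes were called, against 27.1% of all genes. HOXC4 shares 78.9% of its exonic bases with other genes. An unnamed gene among these had the same log2 fold change of 0.41 as HOXC4, so the HOXC4 value is not that of a single gene.

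HOXC8, which sets thoracic and brachial levels, had 11.5, 12.1 and 12.9 CPM in the MYCN 3A libraries, against 6.07, 4.93 and 9.65 CPM in the no MYCN libraries (0.82, SE 0.22, edgeR adjusted p = 0.0085). HOXB7 had 31.0, 33.3 and 38.9 CPM in MYCN 3A and 24.1, 26.9 and 26.6 CPM in no MYCN libraries (0.41, SE 0.13, 0.027). HOXC4 had 24.9, 27.3 and 25.9 CPM in MYCN 3A and 21.1, 17.9 and 19.5 CPM in no MYCN libraries (0.41, SE 0.13, 0.0225). In each of these genes the groups are apart, with no MYCN replicate 3 nearest to the MYCN 3A libraries in HOXC8. HOXB4 had 52.7, 52.8 and 53.2 CPM in MYCN 3A and 42.8, 41.7 and 46.4 CPM in no MYCN libraries (0.28, SE 0.10, 0.0442).

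These calls lay close to the threshold. HOXC8 lost its call without no MYCN replicate 2 (0.0617). HOXB7 lost it without any no MYCN replicate (0.118, 0.0579 and 0.0521) or MYCN 3A replicate 2 (0.0551) or 3 (0.143), and HOXC4 without no MYCN replicate 2 (0.106) or 3 (0.0558) or MYCN 3A replicate 2 (0.0808) or 3 (0.0518). HOXB4 lost it without no MYCN replicate 1 (0.138) or 2 (0.159) or any MYCN 3A replicate (0.0697, 0.0983 and 0.0905), and without a filter (0.0994). With library totals in place of TMM factors HOXC8 alone of the 4 was called, and the values were 0.194 for HOXB4, 0.0802 for HOXB7 and 0.0765 for HOXC4. The number called higher was 0 without no MYCN replicate 2. HOXD13 had 5.22, 3.43 and 2.05 CPM in MYCN 3A libraries, overlapped the no MYCN libraries and was not called (0.86, SE 0.32, 0.0503).

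The direct comparison of wild type MYCN with MYCN 3A tests whether the forms differ. In wild type MYCN libraries 2 HOX genes were called higher and 5 lower than in MYCN 3A libraries, 26.9% of 26, against 30.3% of all genes tested (15.8% higher and 14.5% lower). The groups did not overlap in 8 of the 26 genes, against 40.4% of all genes. The median log2 fold change was -0.18 over the 26 genes and 0 over all genes. HOXB7 differed most surely, with 17.9, 23.0 and 24.7 CPM in wild type MYCN and 31.0, 33.3 and 38.9 CPM in MYCN 3A libraries (-0.65, SE 0.14, edgeR adjusted p = 9.1e-04), a call that held under every setting tried. HOXC8 had 5.44, 8.67 and 7.20 CPM in wild type MYCN and 11.5, 12.1 and 12.9 CPM in MYCN 3A libraries (-0.78, SE 0.22, 0.00968), and its call was lost without wild type replicate 1 (0.0546).

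Within HOXD, HOXD8 had 21.6, 22.4 and 25.1 CPM in wild type MYCN and 18.5, 15.2 and 15.8 CPM in MYCN 3A libraries (0.48, SE 0.14, edgeR adjusted p = 0.0114). HOXD11 had 9.65, 10.2 and 10.0 CPM in wild type MYCN and 15.1, 12.4 and 14.6 CPM in MYCN 3A libraries (-0.50, SE 0.16, 0.0186). HOXD10 had 16.9, 15.9 and 14.8 CPM in wild type MYCN and 19.8, 18.9 and 22.8 CPM in MYCN 3A libraries (-0.37, SE 0.14, 0.0433). The groups are apart in these 3 genes, as they are in 40.4% of all genes tested. HOXD8 was called higher and HOXD10 and HOXD11 lower with wild type MYCN than with 3A. HOXD8 lost its call without MYCN 3A replicate 2 (0.0565), and HOXD11 without wild type replicate 1 (0.0533) or MYCN 3A replicate 1 (0.063) or 3 (0.0547). HOXD10 lost it without wild type replicate 2 (0.0996) or 3 (0.115) or any MYCN 3A replicate (0.0568, 0.0509 and 0.17), with library totals (0.073), without a filter (0.0973) and with the 2 groups alone in the fit (0.0783).

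HOXB3 was called higher in wild type MYCN (0.46, SE 0.16, edgeR adjusted p = 0.0292), but its ranges overlap: 30.6, 24.7 and 19.3 CPM in wild type MYCN and 20.9, 17.8 and 15.4 CPM in MYCN 3A libraries. The call was lost without wild type replicate 1 (0.205) or 2 (0.0682) or MYCN 3A replicate 2 (0.0783) or 3 (0.138). HOXA11 was called lower (-3.79, SE 1.18, 0.0179) from 2, 0 and 0 counts in wild type MYCN and 0, 12 and 16 counts in MYCN 3A libraries, which overlap. It lost its call without wild type replicate 2 (0.0727) or MYCN 3A replicate 2 (0.0661) or 3 (0.107), and at these counts its fold change is not a measure of size. HOXD13 was not called between the forms (0.45, SE 0.30, 0.266), so its rise with wild type MYCN was not shown to differ from its value with MYCN 3A. HOXB9 was not called either (-0.31, SE 0.15, 0.108).

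**Figure D5:**
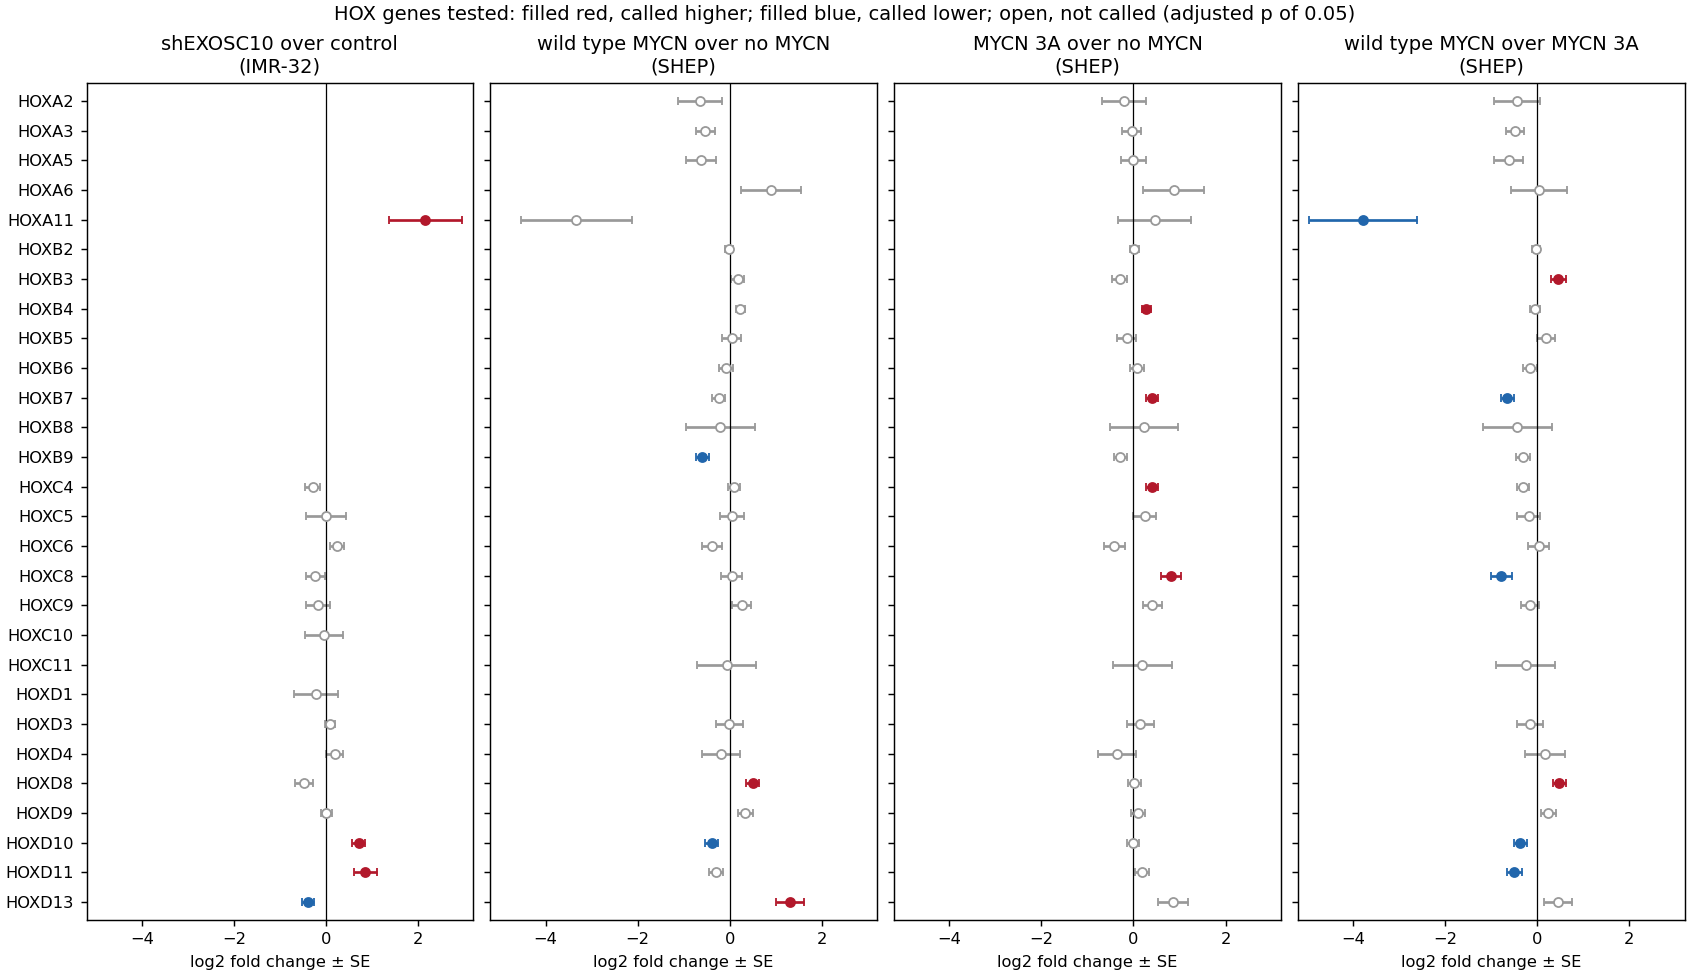
Log2 fold change with its SE (x axis) of each HOX gene tested (rows, by cluster) in the 4 comparisons within a line (panels); filled red points were called higher, filled blue points lower, and open points were not called. HOXD13 lies at -0.39 with EXOSC10 depletion and at 1.31 with wild type MYCN, and HOXD10 lies at 0.71 and -0.39. Both calls at -0.39 were lost under some settings.

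Side by side, the posterior HOXD genes tested had log2 fold changes of -0.39 for HOXD13, 0.85 for HOXD11, 0.71 for HOXD10 and 0.01 for HOXD9 with shEXOSC10 in IMR-32, and 1.31, -0.30, -0.39 and 0.34 in the same order with wild type MYCN in SHEP. HOXD9 was called in neither comparison, and HOXD10 and HOXD11 share exonic bases. The 2 comparisons use different lines and share no libraries. The HOXD11 value in SHEP was not called (0.175). The HOXD13 call with shEXOSC10 was lost in 3 of 13 settings, and the HOXD10 call with wild type MYCN in 7 of 14. The share of HOXD13 in the summed HOXD level was 18.9%, 13.9% and 21.3% in shEXOSC10 cells and 24.4%, 23.1% and 26.6% in control cells, and it was 6.21%, 8.32% and 7.09% in wild type MYCN and 3.09%, 3.40% and 2.99% in no MYCN libraries. The difference between the lines was not tested.

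Other genes of the HOX system also differed in SHEP, where 10.9% of all genes tested rose and 11.3% fell with wild type MYCN, 12.7% rose and 12.8% fell with MYCN 3A, and 15.8% were higher and 14.5% lower in wild type MYCN than in MYCN 3A libraries. Of 7 HOX cofactors tested, 1 rose and 3 fell with wild type MYCN and 2 fell with MYCN 3A. MEIS3 had 5.48 CPM in wild type MYCN, 7.19 CPM in MYCN 3A and 11.7 CPM in no MYCN libraries (-1.09, edgeR adjusted p = 1.2e-04, and -0.70, 0.00646, against no MYCN). PBX3 fell by 0.37 (0.0128) with wild type MYCN, and PBX2 fell by 0.79 (0.0229) with MYCN 3A. MEIS2 was higher in wild type MYCN than in MYCN 3A libraries by 0.39 (0.0081), the single cofactor called between the forms. In the retinoic acid list, 2 of 9 fell with wild type MYCN: CRABP2 had 2.52 CPM in wild type MYCN and 8.22 CPM in no MYCN libraries (-1.70, 1.4e-05), and CYP26B1, which degrades retinoic acid, fell by 1.20 (3.6e-04). With MYCN 3A 3 of 9 fell, CYP26B1 by 0.98, RARB by 0.80 and RARG by 0.54.

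Of 29 Polycomb genes, 5 rose and 3 fell with wild type MYCN, and 2 rose and 7 fell with MYCN 3A. Between the forms 11 were higher and 1 was lower in wild type MYCN libraries. These counts and those of the Trithorax list stand against 10.9% and 11.3% of all genes tested with wild type MYCN. The shares were 12.7% and 12.8% with MYCN 3A, and 15.8% and 14.5% between the forms. PHC2 had 151 CPM in wild type MYCN and 101 CPM in no MYCN libraries (0.58, edgeR adjusted p = 2.0e-05), and PHF1 fell with both forms, by 0.81 with wild type MYCN and by 1.13 with MYCN 3A. EZH2, the H3K27 methyltransferase, was higher in wild type MYCN than in MYCN 3A libraries, 119 against 93.0 CPM (0.36, 0.00189), a gene chosen after its values were seen. Of 18 Trithorax and related genes, 1 rose and 1 fell with wild type MYCN, 1 rose and 5 fell with MYCN 3A, and 6 were higher and 1 lower in wild type MYCN than in MYCN 3A libraries, with HCFC1 at 1.24 (2.3e-04) and MLLT1 at 0.96 (1.5e-04). The mesenchymal markers summed to 4173 to 4483 TPM in wild type MYCN, 3141 to 3251 TPM in MYCN 3A and 3622 to 3840 TPM in no MYCN libraries, and EXOSC10 was higher in wild type MYCN than in MYCN 3A libraries by 0.60 (2.5e-04). The part of these differences in the HOX results was not tested.

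Inside the clusters, 43 noncoding or unnamed genes were found by coordinates, and 9 were tested in SHEP. Of these 9, 0 rose and 2 fell with wild type MYCN, and 2 rose and 0 fell with MYCN 3A. Between the forms, 0 were higher and 3 lower in wild type MYCN libraries. LINC03057, on the posterior side of HOXB9, had 19.3 ± 2.45 CPM in wild type MYCN, 41.6 ± 3.65 CPM in MYCN 3A and 26.1 ± 1.08 CPM in no MYCN libraries. It was lower with wild type MYCN (-0.43, edgeR adjusted p = 0.0158) and higher with MYCN 3A (0.68, 4.9e-04) than in no MYCN libraries, and lower in wild type MYCN than in MYCN 3A libraries (-1.11, 1.1e-06), and of the nearest HOX genes HOXB7 had -0.24, 0.41 and -0.65 and HOXB9 -0.60, -0.29 and -0.31 in the same order. HOXA-AS2 fell with wild type MYCN (-1.59, 0.0118). HOXB-AS1 was lower in wild type MYCN than in MYCN 3A libraries (-0.42, 0.0413). Of 33 protein-coding genes tested within 500 kb of a cluster, 6 rose and 5 fell with wild type MYCN, and 6 rose and 5 fell with MYCN 3A. Between the forms, 3 were higher and 5 lower in wild type MYCN than in MYCN 3A libraries. Both sets of counts stand against shares of all genes tested of 10.9% and 11.3% with wild type MYCN. The shares were 12.7% and 12.8% with MYCN 3A, and 15.8% and 14.5% between the forms. SKAP2, 97.8 kb from HOXA, had 10.5 CPM in wild type MYCN and 18.5 CPM in no MYCN libraries (-0.81, 5.5e-04) and was at 0 in the IMR-32 control libraries, as LINC03057 was. MTX2, beside HOXD, rose with MYCN 3A (0.38, 0.00995), while LNPK on the other side of HOXD was not called in any of the 3 comparisons.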

How the data were processed

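Polyadenylated RNA of 15 libraries was analysed, and the other 74 samples of the series were not analysed here. The deposited values are raw counts per gene. Per the submitters' processing notes, STAR 2.7.10a and featureCounts 2.0.3 were used with hg19, and per the file headers the SHEP table was counted with strand setting 2, a minimum overlap of 10 bases and Ensembl release 87, with a read counted for each gene it overlaps. The settings of the IMR-32 table are not given in the sources used here. Exonic lengths are those of the deposited tables. Of the counts between 1 and 10, 65.5 to 77.1% were even, as when both ends of a pair are counted, so a floor is 6 counts per library, for 3 pairs of read ends, and covers counting error only. Columns of IMR-32 were assigned to samples through the doxycycline or solvent in their names.

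R 4.3.3, edgeR 4.0.16, limma 3.58.1 and DESeq2 1.42.0 were used. After filterByExpr and TMM scaling, the quasi-likelihood F test of edgeR (robust) was run, with Benjamini-Hochberg adjustment over all genes tested and calls at 0.05. The 3 SHEP groups were in 1 fit. Between lines, all 15 libraries were in 1 fit. The scripts were tested on simulated data. TPM was computed here from the counts and the lengths. Alternatives were other scalings, DESeq2, other filters, a replicate block, single libraries left out, smaller fits and, added after seeing the data, counts halved.

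Values in every library are given for genes called within a line with groups that do not overlap and for the 2 highest genes of a cluster per line, and of each gene list at most the 3 called members with the smallest p per comparison are named. The members, lists and rules were chosen with earlier results of these data known. Gene names came from a table that matched 51996 of 57905 identifiers.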

Additional observations from a re-analysis of the deposited data

Results flagged for a closer look

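For 7 of 26 HOX genes tested, the libraries labelled wild type MYCN and MYCN 3A differed from each other by edgeR's test of that difference. This is 26.9%, against 30.3% of all genes tested, so the number called is not a result about HOX genes. The single genes are flagged for a closer look. Of their calls, only that of HOXB7 held under every setting tried. HOXB7 differed by -0.65 on the log2 scale (wild type over 3A), with -0.24 for wild type MYCN and 0.41 for MYCN 3A against no MYCN. HOXC8 differed by -0.78, with 0.04 and 0.82 in the same order. HOXD11 differed by -0.50, with -0.30 and 0.19, and HOXD10 by -0.37, with -0.39 and -0.02. HOXD8 differed by 0.48, with 0.50 and 0.02, and HOXB3 by 0.46, with 0.17 and -0.30. HOXA11 differed by -3.79, with -3.33 and 0.46, at 16 counts or fewer per library. Both forms were compared with the same 3 no MYCN libraries. Groups of 3 are too small to test for a single library that stands apart.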

How the results depend on the processing

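None of the HOX genes called changed direction under any alternative, and among the single calls, tested gene by gene, 524 values kept their side of the threshold and 64 lost it. These totals include the calls between the lines, where only HOXC6 and HOXA11 lost a call in any setting. Calls within a line were lost more often. The MYCN 3A calls against no MYCN were lost in 7 of 14 settings for HOXB4, 6 for HOXB7, 5 for HOXC4 and 1 for HOXC8. Those of HOXD10 and HOXD11 with shEXOSC10, of HOXD13, HOXD8 and HOXB9 with wild type MYCN, and of HOXB7 between the forms held throughout. With DESeq2, 0 HOX genes were called lower on EXOSC10 depletion (1 in edgeR) and 1 lower with wild type MYCN (2 in edgeR). With library totals, 1 was called higher and 1 lower with MYCN 3A, against 4 and 0, and the median log2 fold change of all genes there was -0.14, against -0.04 with TMM factors. With the 2 groups alone in the fit, 3 were lower in wild type than in MYCN 3A libraries (5 with all 3 groups). Leaving out 1 library gave 2 to 3 higher and 0 to 2 lower genes on EXOSC10 depletion, 2 higher and 1 to 3 lower for wild type MYCN, 0 to 3 higher and 0 lower for MYCN 3A, 0 to 2 higher and 2 to 4 lower between the forms, and 4 to 5 higher and 18 to 20 lower between the lines; this also leaves fewer libraries for the test. Libraries of the same replicate number had residual r of 0.06 to 0.10 in IMR-32 and -0.08 to 0.26 in SHEP, and those of different numbers -0.07 to -0.01 and -0.26 to 0.09. Every IMR-32 library thus correlated best with its own number, but not every pair passed 0.1 and the labels name no shared batch, so the pairing is only a hint. With the number as a replicate block, 5251 of all genes were called on EXOSC10 depletion (4639 without), and the HOX counts were 3 higher and 1 lower on EXOSC10 depletion, 2 and 3 for wild type MYCN, 5 and 0 for MYCN 3A, 2 and 6 between the forms, and 5 and 19 between the lines. HOXA11 had no value with counts halved, nor between the forms with DESeq2 or with 2 groups in the fit. Depth limits the genes near 1 CPM, such as HOXB8, whose log2 fold change with wild type MYCN had an SE of 0.76.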
